A study of Helianthus annuus with 9 samples.

Results

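The entries described here are 24-nt small interfering RNAs (siRNAs) that were read in every library of a sunflower seed series. They were chosen by 2 values, a guide strand of 24 nt and a count of at least 10 reads in all 9 libraries. Of 2883 listed 24-nt siRNA entries, 985 met this rule, which is 34.2%. The table holds 7735 siRNA entries and 8473 small RNA entries in all. All RNA came from seeds of 1 sunflower line (Helianthus annuus, L-1-OL-1), named high-oleic in the labels and grown in a field without a stated treatment, and 3 libraries each were made at 7, 22 and 37 days. What the days count from, and whether libraries stand for separate plants, was not given in the sources used here. Accordingly, the p-values below set differences between days against the spread between these libraries, which may be technical.

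As background, most 24-nt siRNAs of plants are cut by a Dicer-like enzyme from double-stranded RNA that RNA polymerase IV and an RNA-dependent RNA polymerase make at transposons and other repeats. The guide strand is loaded into an ARGONAUTE protein and directs methylation of matching DNA. In Arabidopsis, the ARGONAUTE 4 group binds mostly guides that begin with A, whereas ARGONAUTE 5 binds mostly guides that begin with C, and 24-nt siRNAs are abundant in developing seeds. None of these proteins was measured here, and whether the members arise in this way was not tested.

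The guides of the 10 most abundant entries are shown because they took up to 26.5% of the reads of all 985 entries in a library. They are written 5′ to 3′ in DNA letters as deposited, so that T stands for U, and the capital marks the first base.
novel_sir6998: Acaaagtcggactagagtcaagct
novel_sir11343: Agcctgggctttggccgccgtacc
novel_sir11713: Cgaaccgtgaaagcgtggcctaac
novel_sir8421: Atacgaaccgtgaaagcgtggcct
novel_sir15189: Ctccattaggaactagctagcaac
novel_sir15333: Acctccgactgagtcgtttccagg
novel_sir7998: Ccgggcgtcgaacagccaactcag
novel_sir11714: Cgaaccgtgaaagcgtggcctaac
novel_sir5021: Ccgaccagcagtaggggcctcggc
novel_sir1060: Actttggcctcgtttttttccttg
Of these guides, 5 begin with A and 5 with C, and their median GC content was 58.3%, against 45.8% over the 985 entries. The guides of novel_sir11713 and novel_sir11714 are identical, and that of novel_sir8421 shares 21 bases with them.

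The entries with the largest falls and rises between day 7 and day 37 are shown because they mark the ends of the range.
novel_sir19223, falling: Tatagtcggaaacatggagaaaag
novel_sir13019, falling: Aagaccatacgcaagaaccggatg
novel_sir17462, falling: Actatccgaatccgtatctgaaat
novel_sir12838, falling: Gccactttttcatagtcggggact
novel_sir13850, falling: Aagaaagaacccggtggccagagt
novel_sir8951, rising: Gacacctctagcttcaaattccga
novel_sir14085, rising: Taggcggctacagactttttcaag
novel_sir8838, rising: Actacaattcggacgacgaagccg
novel_sir18882, rising: Attcctcgtttaagaccaacaatt
The largest rise was that of novel_sir15189, whose guide stands among the 10 above. The capital again marks the first base, which was A in 5 of these 9 guides, G in 2 and T in 2.

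Each entry was deposited as a duplex of a guide and a passenger strand. In all 985 duplexes 22 bases paired and 2 bases overhung at each 3′ end. For novel_sir15189 the strands are as follows, 5′ to 3′ with the first base in capitals.
guide: Ctccattaggaactagctagcaac
passenger: Tgctagctagttcctaatggagct
Whether a count is of the guide, of the passenger or of both was not given in the sources used here. It is not a count of the guide alone in every case, since 60 entries shared 29 guides, with different passengers, and their counts differed. Summed over the libraries, the higher count of such a set was a median of 3.07 times the lower, with a range of 1.18 to 9.36 times.

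No 24-nt siRNA had a count between 1 and 9 in any library, so an entry outside the rule is one listed at 0 in at least 1 library. Whether a listed 0 stands for no reads or for 1 to 9 reads was not given in the sources used here. Of the 1898 such entries, 124 were at 0 in exactly 1 library, which was a day 7 library for 18, a day 22 library for 12 and a day 37 library for 94. Day 37 replicate 1 accounted for 53 of them. Just inside the rule, novel_sir12838 had 10, 12 and 12 reads in the day 37 libraries and novel_sir15857 had 13, 10 and 21 reads in the day 7 libraries. Just outside it, novel_sir9492 was listed at 22, 27 and 0 reads at day 37 and novel_sir18526 at 0, 16 and 10 reads at day 7. Among entries with a 0 in 1 library, these last were picked for their high mean level. A member's lowest count had a median of 45 reads, and 52 members had a lowest count of exactly 10.

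The libraries held 31011803 to 34397084 reads, of which 2208822 to 4050364 stood in small RNA entries and 287376 to 404063 in the 985 siRNAs. Of the small RNA reads, the 985 siRNAs took 13.2% ± 0.344 at day 7, 8.87% ± 0.573 on day 22 and 9.82% ± 0.515 on day 37 (SD, n = 3 each). Every day 7 library lay above every later library, while days 22 and 37 overlapped slightly, at 8.21% to 9.27% and 9.25% to 10.2%. Set against the whole library with its intergenic reads, the order differed, with 0.928%, 0.928% and 1.17% at days 7, 22 and 37. They made up 68.4% of the reads of all 24-nt siRNAs at day 7, then 94.0% at day 22 and 96.4% by day 37. The ribosomal RNA entries of the same table took 3.23% ± 0.397, 4.84% ± 1.20 and 15.3% ± 3.68 of small RNA reads at the 3 days, with 19.5% in day 37 replicate 1, and their part in the results below was not tested.

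Levels below are CPM, the reads of an entry scaled to the library's total over small RNA entries and to TMM factors, which correct for differences in library make-up. These factors were 1.34 to 1.41 at day 7, 0.965 to 1.05 at day 22 and 0.693 to 0.743 at day 37. A change is the log2 ratio of a later to an earlier day, from edgeR's quasi-likelihood test fitted on all small RNA entries. The standard error after its ± was worked out as the size of the change divided by the square root of that test's F value. It is approximate and can lie below the counting error of an entry with few reads. An entry passed with a Benjamini-Hochberg adjusted p under 0.05 over the 7294 entries tested. All 985 members were tested. Since the rule used these counts and keeps only entries that were never listed at 0, the counts of calls describe the members and carry no test of them as a group.

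Most persistent 24-nt siRNAs were lower at day 37 than at day 7, and a smaller set was higher. At day 22 against day 7, 526 of the 985 were lower, 115 were higher and 344 did not pass, so that 641 passed, where 69.8% of all entries tested passed, 34.5% lower and 35.3% higher. At day 37 against day 22, 407 were lower, 132 were higher and 446 did not pass, so that 539 passed, where 50.6% of all entries tested passed, 31.8% lower and 18.8% higher. At day 37 against day 7, 634 were lower, 159 were higher and 192 did not pass, so that 793 passed, where 78.7% of all entries tested passed, 45.6% lower and 33.1% higher. The median log2 change of the members was -0.59, -0.42 and -1.05 in the 3 comparisons, and that of all entries tested was -0.01, -0.15 and -0.57. In the last comparison 506 members were lower by at least 2-fold and 97 were higher by at least 2-fold. Calls in both directions were not particular to the members. The lower and upper quartiles of the log2 change were -1.72 and -0.07 in the members and -6.14 and 1.48 in all entries tested. The latter include entries at 0 in at least 1 library, which the rule keeps out of the members. The difference in spread is thus partly set by the rule. Without TMM factors, on library totals alone, the rises made up 10.9% of the calls at day 37 against day 22 in place of 24.5%, and 9.11% in place of 20.1% at day 37 against day 7.

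The persistent siRNAs of the other main lengths were mostly higher at day 22 and at day 37 against day 7, but not at day 37 against day 22. Among the 1372 siRNAs of 21 nt with at least 10 reads in all libraries, 911 were higher and 144 lower at day 22 against day 7, with a median log2 change of 0.79. Among the 732 of 22 nt, 396 were higher and 156 lower, with a median of 0.58. Of the 1536 other 24-nt siRNAs tested, 1042 were lower and 41 higher in that comparison, but those are entries at 0 in at least 1 library, which the rule itself keeps out of the members. At day 37 against day 22, 347 of the 21-nt siRNAs were higher and 469 lower, with a median of -0.16. In the 22-nt siRNAs 236 were higher and 236 lower, with a median of -0.03. At day 37 against day 7, 761 of the 21-nt siRNAs were higher and 279 lower, with a median of 0.65. Of the 22-nt siRNAs, 390 were higher and 197 lower there, with a median of 0.56. The differences between these classes were not tested.

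**Figure D1:**
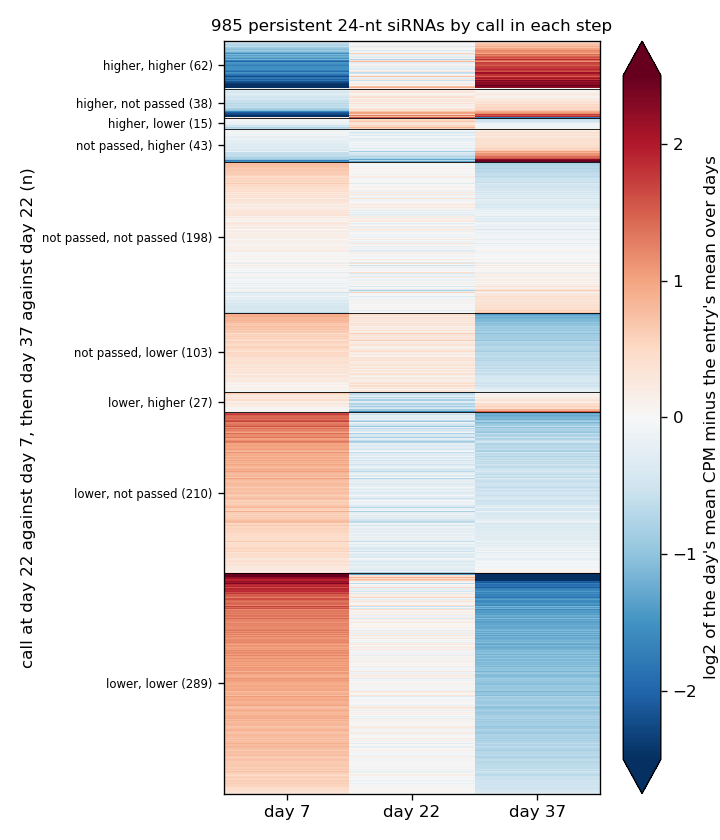
Each row is 1 of the 985 persistent 24-nt siRNAs and each column a day, and the colour is the log2 of the day's mean CPM (n = 3 libraries) minus the entry's mean over the 3 days, clipped at both ends of the scale. Rows are grouped by their call at day 22 against day 7 and then at day 37 against day 22, with the number of entries in brackets; the 289 entries lower in both steps fill the bottom of the plot and the 62 higher in both steps its top.

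The calls of the day 22 to day 7 and the day 37 to day 22 comparisons, which share the day 22 libraries, sorted the members into 9 cells, drawn in the plot of calls by step. In 289 members both steps were falls, and in 62 both were rises, beside 14.5% lower and 14.0% higher in both steps among all 7294 entries tested. A fall followed by a rise was called in 27 members and a rise followed by a fall in 15, while 198 passed in neither step. Over all 3 comparisons 132 members passed in none. For the counts of 27, 15, 198 and 132 the share among all entries tested was not worked out, so they only describe the members. The 289 falling members had a median log2 change of -1.96 at day 37 against day 7, with a range of -7.71 to -0.65, and the 62 rising members had a median of 3.22, with a range of 0.70 to 8.38.

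The 62 members that rose in both steps took 8.97% ± 0.202 of the reads of all members at day 7, then 27.9% ± 1.51 at day 22 and 54.3% ± 1.15 by day 37. The 289 members that fell in both steps took 47.2% ± 0.449, 24.7% ± 1.63 and 8.61% ± 0.850 (SD, n = 3 each). In each set the libraries of the 3 days did not overlap, as the choice of the sets makes likely. Of the 100 members with the highest mean CPM over the days, a mean that a large rise itself lifts, 43 belonged to the rising set and 25 to the falling set. At day 7 the median level was 71.3 CPM in the rising set and 84.7 CPM in the falling set, and at day 37 it was 773 CPM and 19.2 CPM. By first base the rising set held 42 guides with A, 12 with C, 6 with G and 2 with T, and the falling set 247 with A, 22 with C, 16 with G and 4 with T. Median GC content was 54.2% in the rising set and 41.7% in the falling set.

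The most abundant member was novel_sir6998, which rose in both steps. It stood at 1128, 1006 and 982 CPM in the day 7 libraries, at 3148, 3500 and 2715 CPM at day 22 and at 8903, 8033 and 7085 CPM at day 37. The days did not overlap and followed the order of age. The log2 change at day 37 against day 7 was 2.95 ± 0.13 (adjusted p = 2.64e-07, edgeR).

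The largest rise belonged to novel_sir15189. It had 13.6, 13.8 and 16.01 CPM at day 7, from 40, 44 and 51 reads, then 1037, 1057 and 1032 CPM at day 22 and 4487, 5245 and 4798 CPM at day 37. The days were far apart, with little spread within a day, and at day 37 its level was the second among the 10 most abundant. Its log2 change was 6.17 ± 0.12 at day 22 against day 7 and 8.38 ± 0.13 at day 37 against day 7, a 334-fold difference (adjusted p = 8.36e-09, edgeR).

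The other 8 of the 10 most abundant siRNAs differed in course. For novel_sir15333 and novel_sir7998 most of the rise lay at day 37, with 524 ± 59.2, 703 ± 139 and 4418 ± 481 CPM at days 7, 22 and 37 for novel_sir15333 and 381 ± 22.9, 932 ± 202 and 3676 ± 391 CPM for novel_sir7998. The log2 changes at day 37 against day 7 were 3.08 ± 0.17 and 3.27 ± 0.18 (adjusted p = 8.78e-07 and 7.2e-07, edgeR). The overlapping novel_sir11713, novel_sir8421 and novel_sir11714 had reached most of their level by day 22 and are described with their group below. The guide of novel_sir15333 is also found, as its reverse complement, in the predicted precursor of the miRNA entry novel_mir98, and 7 members in all lie in at least 1 of the 95 predicted miRNA precursors listed, on either strand.

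The only fall at day 37 against day 7 among these 10 was that of novel_sir1060, which had 2098, 2285 and 2225 CPM at day 7, 1258, 1307 and 1407 CPM at day 22 and 759, 833 and 698 CPM at day 37. Its days did not overlap, and the log2 change at day 37 against day 7 was -1.53 ± 0.09 (adjusted p = 1.44e-06, edgeR). For novel_sir11343 the values were 2868, 1964 and 1171 CPM at day 7, 2509, 2839 and 1123 CPM at day 22 and 3319, 2834 and 3098 CPM at day 37. Its days overlapped, and the log2 change of 0.62 ± 0.39 at day 37 against day 7 did not pass (adjusted p = 0.17, edgeR). The values of novel_sir5021 were 1606, 1535 and 1160 CPM at day 7, 1262, 1121 and 1220 CPM at day 22 and 1686, 1611 and 2065 CPM at day 37. Day 37 lay above both earlier days in all libraries, by less than the largest gap within day 7. The log2 change of 0.32 ± 0.15 against day 7 did not pass (adjusted p = 0.0761, edgeR), although it passed with upper-quartile factors at 0.58 and on library totals alone at -0.60. Against day 22, the change of 0.57 ± 0.15 at day 37 passed (adjusted p = 0.0111, edgeR).

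**Figure D2:**
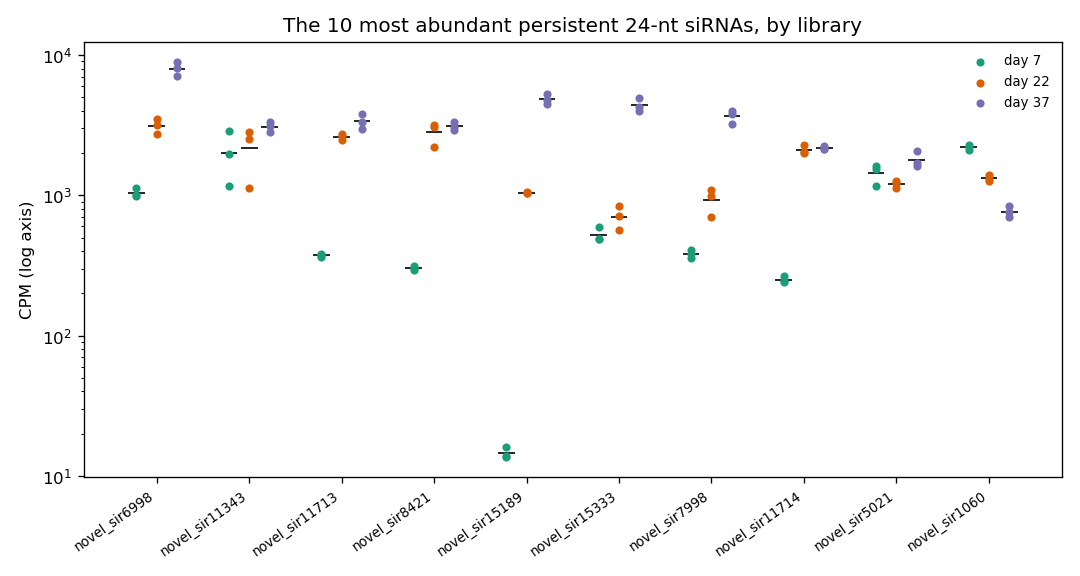
Points are single libraries and black bars day means of the 10 most abundant persistent 24-nt siRNAs, with CPM on a log axis and days 7, 22 and 37 from left to right within each entry. novel_sir15189 runs from 13.6 CPM in its lowest day 7 library to 5245 CPM in its highest day 37 library, novel_sir1060 is the single entry that falls throughout, and the libraries of novel_sir11343 overlap between days.

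The largest falls reached from among the most abundant members of day 7 to near the minimum of the rule. novel_sir19223, whose guide begins with T, had 1845, 1619 and 1289 CPM at day 7, 141, 142 and 94.0 CPM at day 22 and 4.62, 9.98 and 7.75 CPM at day 37, the last from 12, 30 and 22 reads. The days were far apart in all libraries, and the log2 change at day 37 against day 7 was -7.71 ± 0.34, a 210-fold difference (adjusted p = 2.13e-07, edgeR). For novel_sir13019 most of the fall lay before day 22, with 1251 ± 13.1, 21.5 ± 5.34 and 6.43 ± 1.99 CPM at days 7, 22 and 37 and log2 changes of -5.86 ± 0.25 at day 22 against day 7 and -7.60 ± 0.28 at day 37 against day 7. At day 37 the 5 members with the largest falls rest on 10 to 61 reads per library, so counting noise weighs on their folds. The standard errors do not always show this. For the change at day 37 against day 7 they were 0.09 for novel_sir12838, from 10, 12 and 12 reads at day 37, and 0.13 for the abundant novel_sir6998.

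The next falls between day 7 and day 37 were those of novel_sir17462, novel_sir12838 and novel_sir13850, with log2 changes of -6.74 ± 0.23, -6.14 ± 0.09 and -5.60 ± 0.15. The guide of novel_sir12838 is also found, as its reverse complement, in the predicted precursor of novel_mir29. The largest falls at day 37 against day 22 were those of novel_sir19223 with -4.06 ± 0.30, followed by novel_sir17429 with -3.95 ± 0.09, novel_sir14193 with -3.74 ± 0.20, novel_sir12838 with -3.61 ± 0.09 and novel_sir10992 with -3.44 ± 0.10. All of these had also been lower at day 22 than at day 7. At day 22 against day 7 the largest falls after that of novel_sir13019 were novel_sir17462 with -4.40 ± 0.20, novel_sir19223 with -3.66 ± 0.27, novel_sir16055 with -3.08 ± 0.23 and novel_sir5620 with -2.96 ± 0.17. Of these, novel_sir16055 was again higher at day 37 than at day 22, with 28.4 ± 2.63, 3.35 ± 0.622 and 14.3 ± 3.18 CPM at days 7, 22 and 37.

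Among rises, novel_sir8951 followed novel_sir15189 at day 37 against day 7, with a log2 change of 5.41 ± 0.32, and novel_sir14085, novel_sir8838 and novel_sir18882 had 5.27 ± 0.37, 4.93 ± 0.21 and 4.88 ± 0.32. novel_sir14085, a guide with T as its first base, had 8.47, 4.08 and 15.7 CPM at day 7, 140, 116 and 125 CPM at day 22 and 342, 395 and 360 CPM at day 37. Its day 7 libraries, of 25, 13 and 50 reads, spread widely, but all lay far below the later ones. The rises that were largest at day 22 against day 7 were, after novel_sir15189, those of novel_sir8810 with 4.19 ± 0.22, novel_sir7592 with 4.15 ± 0.25, novel_sir8951 with 4.08 ± 0.31 and novel_sir17830 with 3.79 ± 0.27. Of these novel_sir8810, novel_sir7592 and novel_sir17830 did not pass at day 37 against day 22. Their means were 1714, 1629 and 1321 CPM at day 37 and 1452, 1098 and 1226 CPM at day 22. The guides of novel_sir17830 and novel_sir8838 overlap by 22 bases on the same strand.

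The rises at day 37 against day 22 were led by novel_sir7230 with a log2 change of 4.21 ± 0.30, novel_sir14440 with 3.57 ± 0.32, novel_sir13137 with 3.12 ± 0.47, novel_sir18508 with 3.07 ± 0.32 and novel_sir5179 with 2.91 ± 0.23. novel_sir7230 had 4.74, 5.02 and 10.7 CPM at day 7, 8.30, 5.29 and 9.06 CPM at day 22 and 121, 158 and 147 CPM at day 37. Days 7 and 22 overlapped and day 37 stood apart. For novel_sir13137 and novel_sir14440, day 37 replicate 1, the library with the largest share of ribosomal RNA reads, was well above the other two, at 1912 CPM against 957 and 821 CPM for novel_sir13137, and at 1789 CPM against 966 and 802 CPM for novel_sir14440. novel_sir18508 was lowest at day 22, with 22.8 ± 5.00, 6.69 ± 1.99 and 56.8 ± 18.1 CPM at the 3 days.

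The members with the closest day means were chosen for that closeness and are given as levels. novel_sir18374 averaged 140, 140 and 139 CPM at days 7, 22 and 37, with single libraries between 122 and 155 CPM. novel_sir5588 averaged 50.5, 51.0 and 51.8 CPM and novel_sir1878 averaged 36.3, 35.9 and 36.6 CPM. Their day means thus differed by at most 1.03 times, less than the spread between libraries of 1 day.
novel_sir18374: Agggagagaccttgtgttccaagg
novel_sir5588: Acgctccctagtcggtcgaccggg
novel_sir1878: Aaggggctttatgactacggatgg
They are shown beside the changing siRNAs, and all 3 begin with A, marked by the capital.

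Reads became concentrated in fewer entries with age. The smallest number of members that together held 50% of the members' reads was 107, 109 and 118 in the day 7 libraries, 60, 55 and 68 at day 22 and 25, 27 and 28 at day 37. For 90% of the reads it was 548 to 561 members at day 7, 466 to 494 at day 22 and 243 to 288 at day 37. The days did not overlap in either measure. The median count per member was 142, 150 and 163 reads at day 7, 116, 109 and 116 reads at day 22 and 60, 70 and 63 reads at day 37, although the members' summed reads were highest at day 37.

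The 10 siRNAs with the highest mean CPM over the days held 8.83% ± 1.16 of the members' reads at day 7, then 20.4% ± 0.269 at day 22 and 26.0% ± 0.620 by day 37. They were chosen over all days, which favours the day with the highest levels. The 10 most abundant of each library held 14.1% at day 7, then 22.1% at day 22 and 28.8% by day 37, so the order was the same. The members ranked 11 to 50 held 15.2%, 24.6% and 37.9% of the members' reads at the 3 days, and the 485 ranked 501 to 985 held 14.1%, 9.75% and 5.02%.

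The direction of change differed by rank. Among the members ranked 11 to 50, 31 of 40 were higher and 9 lower at day 37 against day 7, with a median log2 change of 2.96. Of those ranked 51 to 100, 21 of 50 were higher and 24 lower, with a median of -0.24. Below that, 70 of 100, 217 of 300 and 313 of 485 were lower in the ranks 101 to 200, 201 to 500 and 501 to 985, with medians of -0.98, -1.10 and -1.11. A rank by the mean over days again favours entries with a high level at any day, so these counts are a description.

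**Figure D3:**
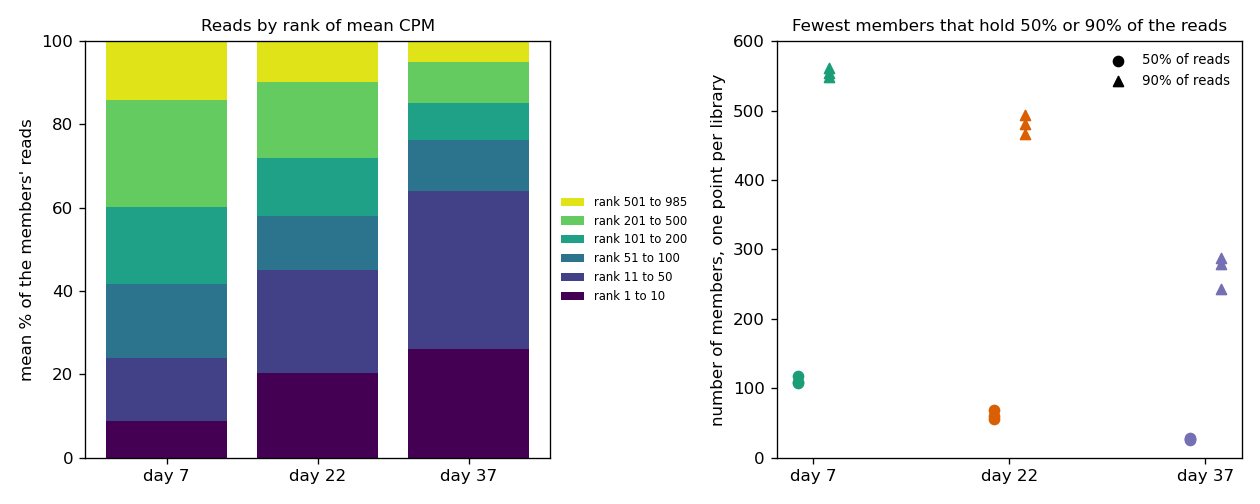
The left panel stacks the mean share of the members' reads (n = 3 libraries a day) by the rank of a member's mean CPM over the days, and the right panel gives, with 1 point per library, the smallest number of members that hold 50% (circles) or 90% (triangles) of the reads. The share of ranks 1 to 10 is 8.83%, 20.4% and 26.0% at days 7, 22 and 37, and 107 to 118 members hold 50% of the reads at day 7 but 25 to 28 at day 37.

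Guides beginning with A made up most persistent 24-nt siRNAs. Of the 985, 761 began with A (77.3%), 111 with C (11.3%), 76 with G (7.72%) and 37 with T (3.76%). A was more frequent still among the other 24-nt siRNAs, with 1677 of 1898 (88.4%), and was less frequent in persistent siRNAs of other lengths. In those of 21 nt, 36.1% began with A and 40.3% with C, and in those of 22 nt, 27.2% with A and 49.0% with C. These shares count entries, some of which overlap in sequence, and their differences were not tested.

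Counted by reads, the share of A was lower and that of C higher at each later day. All reads of an entry were put under the first base of its guide, although a count may include the passenger. These are thus shares of entries weighted by reads, and the first base of the reads themselves is not known. Guides with A held 76.1% ± 0.320 of the members' reads at day 7, then 72.9% ± 1.49 at day 22 and 70.0% ± 0.966 by day 37, and guides with C held 14.4% ± 0.239, 20.1% ± 1.13 and 24.7% ± 0.646. The libraries of the 3 days did not overlap for either base. G held 5.45%, 4.40% and 3.78%, and T held 4.06%, 2.54% and 1.51%. With a minimum of 20 reads in place of 10, which leaves out novel_sir19223, T held 2.27%, 2.18% and 1.23%. Without the 10 most abundant siRNAs the order for A was lost, with 76.6%, 77.3% and 75.3%, and C held 13.0%, 14.0% and 17.5%. The ordered values of A were thus seen only with those abundant guides. Among them, novel_sir15189, novel_sir11713, novel_sir11714 and novel_sir7998, shown above, begin with C and rose at day 37 against day 7. In the same comparison novel_sir6998, novel_sir8421 and novel_sir15333, which begin with A, rose too.

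By entries, 533 of 761 guides with A were lower and 93 higher at day 37 against day 7, with a median log2 change of -1.16. For C, 49 of 111 were lower and 36 higher, with a median of -0.23, and for G, 40 of 76 were lower and 17 higher, with a median of -0.68. For T, 12 of 37 were lower and 13 higher, with a median of 0.08. Median GC content was 45.8% for guides with A and with T and 54.2% for those with C and with G. GC content was counted over the whole guide, first base included, so a first C or G itself adds 1 of the 24 bases. Of the 213 guides with less than 40% GC, 169 were lower and 20 higher in the same comparison, with a median log2 change of -1.46, and of the 87 guides with at least 60% GC, 38 were lower and 28 higher, with a median of -0.06. First base and GC content were not separated here.

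**Figure D4:**
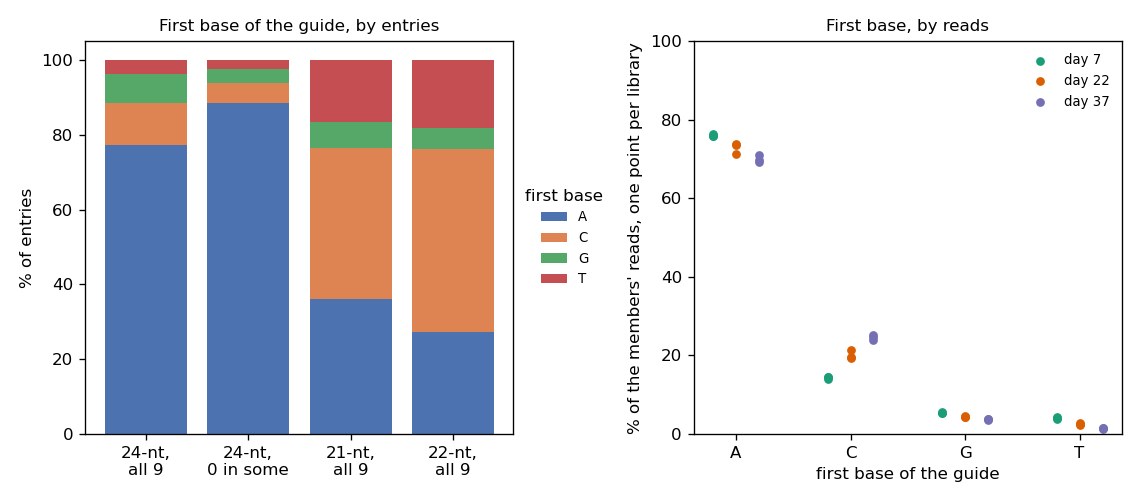
The left panel stacks the share of entries by the first base of the guide in the 985 members (24-nt, all 9), in the other 24-nt siRNAs and in the siRNAs of 21 and 22 nt with at least 10 reads in all 9 libraries. The right panel gives the share of the members' reads by the first base of the entry's guide, 1 point per library. A falls to 69.1% to 71.1% at day 37, against 75.9% to 76.5% at day 7. C lies at 24.04% to 25.3% at day 37, against 14.1% to 14.6% at day 7.

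Many persistent siRNAs overlapped in sequence. Guides were taken to overlap where the whole overlapping stretch matched and had at least 20 bases, on either strand. Pairs with a mismatch in that stretch were not counted. By this measure 265 of the 985 members (26.9%) fell into 102 groups of up to 10 guides. These came from 146 pairs on the same strand and 71 on opposite strands. Overlapping members share a run of bases and cannot be taken as independent of each other. In 76 groups at least 2 members passed at day 37 against day 7, and in 63 of these they moved in 1 direction and in 13 in both. Of the 793 members that passed in that comparison, 634 were lower, so members of a group could share a direction without any relation. No genome was used here, so whether a group comes from 1 locus or from a repeat was not tested. The guides were also not compared with ribosomal RNA, transposon or gene sequences, so whether they match any of these was not tested. The 2 groups with the most reads, picked after their values were seen, are shown because their members moved together.

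The group with the most reads joined novel_sir11713, novel_sir11714 and novel_sir8421 on one strand with 3 guides of the opposite strand.
novel_sir8421: Atacgaaccgtgaaagcgtggcct
novel_sir11713 and novel_sir11714: Cgaaccgtgaaagcgtggcctaac
novel_sir10087, opposite strand: Gatcgttaggccacgctttcacgg
novel_sir7367, opposite strand: Aggatcgttaggccacgctttcac
novel_sir130, opposite strand: Aaaggatcgttaggccacgctttc
Joined, the 6 entries span 35 bases, of which novel_sir8421 covers positions 1 to 24, novel_sir11713 and novel_sir11714 positions 4 to 27, novel_sir10087 positions 8 to 31, novel_sir7367 positions 10 to 33 and novel_sir130 positions 12 to 35. The capital marks the first base of each guide.

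These 6 entries held 1.54% ± 0.0198 of the members' reads at day 7, then 10.4% ± 0.241 and 9.82% ± 0.246 at days 22 and 37. novel_sir11713 had 382, 374 and 364 CPM at day 7, 2628, 2734 and 2487 CPM at day 22 and 3779, 3336 and 2982 CPM at day 37, so that day 7 stood apart and the later days were closer to each other. All 6 rose at day 37 against day 7, with log2 changes between 2.91 ± 0.10 for novel_sir130 and 3.36 ± 0.15 for novel_sir8421. More of the rise lay after day 22 on the opposite strand. At day 22 against day 7 the 3 entries of the strand of novel_sir8421 had log2 changes of 2.81 ± 0.11, 3.22 ± 0.15 and 3.08 ± 0.09, and novel_sir7367, novel_sir130 and novel_sir10087 of the other strand had 2.04 ± 0.27, 0.91 ± 0.09 and 1.30 ± 0.08. At day 37 against day 22 the opposite-strand entries rose by 1.07 ± 0.26, 1.99 ± 0.09 and 2.02 ± 0.09, novel_sir11713 rose by 0.36 ± 0.10, which became -0.11 on library totals alone, and novel_sir8421 and novel_sir11714 did not pass, with 0.14 ± 0.14 and 0.04 ± 0.08. This difference between strands was seen in the values and was not tested. The strand is that of the guide, and a count may include the passenger, which lies on the other strand.

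The second group by reads held 10 siRNAs, 6 on one strand and 4 on the other, and fell.
novel_sir16826: Aaaacgcaatggccagaaaacaca
novel_sir16829: Aaaacgcaatggccagaaaacact
novel_sir1453: Aacgcaatggccagaaaacactaa
novel_sir19744: Gtaaaacgcaatggccagaaaaca
novel_sir1454: Aacgcaatggccagaaaacacttc
novel_sir6653: Atttctaaaacgcaatggccagaa
novel_sir10733 and novel_sir10732, opposite strand: Gttttctggccattgcgttttacg
novel_sir10735 and novel_sir10734, opposite strand: Gttttctggccattgcgttttaga
The capital marks the first base, which was A in 5 guides of the strand of novel_sir16826 and G in the rest. Guides of this group that begin at the same position can differ at their 3′ ends, as those of novel_sir1453 and novel_sir1454 do.

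The group held 3.80% ± 0.242 of the members' reads at day 7, then 2.08% ± 0.305 at day 22 and 0.685% ± 0.140 by day 37. Its most abundant entry, novel_sir16826, averaged 1142 ± 108, 591 ± 73.4 and 289 ± 25.9 CPM at the 3 days, and the log2 change at day 37 against day 7 was -1.98 ± 0.13 (adjusted p = 1.89e-06, edgeR). In that comparison 9 of the 10 fell, with log2 changes of -2.47 ± 0.10 for novel_sir19744 to -0.68 ± 0.19 for novel_sir10734. novel_sir10732, the least abundant, had a log2 change of -1.11 ± 0.49 and did not pass (adjusted p = 0.0656, edgeR).

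**Figure D5:**
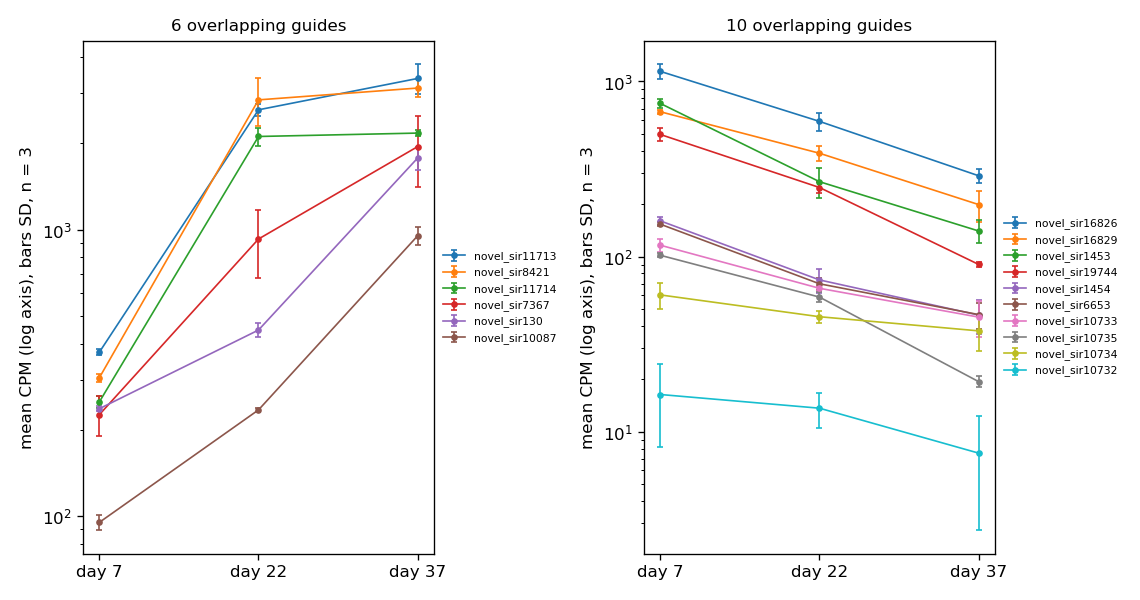
Lines are the mean CPM (log axis, bars SD, n = 3 libraries) at days 7, 22 and 37 of the entries in the 2 overlap groups with the most reads. On the left all 6 entries are higher at day 37 than at day 7, with novel_sir11713, novel_sir8421 and novel_sir11714 near their day 37 level by day 22; on the right the 10 entries have lower means at day 37 than at day 7.

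Some members had an entry of another length with the same 5′ end, which was 21 nt for 15 members, 22 nt for 17 and 23 nt for 18. At day 37 against day 7, both entries passed for 10 of the 21-nt pairs, in the same direction in all 10, of which 9 were higher. Both passed for 10 of the 22-nt pairs, of which 8 were higher together, 1 lower together and 1 opposite, and for 13 of the 23-nt pairs, of which 4 were higher together and 9 lower together. Reads of such pairs share most of their sequence, and how the authors' counting told them apart was not given in the sources used here.

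Libraries of 1 day were mostly close. The highest library exceeded the lowest by a median of 1.24 times at day 7, 1.32 times at day 22 and 1.36 times at day 37. A gap of at least 3-fold within a day was seen in 10 members at day 7, 19 at day 22 and 26 at day 37, up to 5.00, 9.71 and 6.96 times. Without the 52 members concerned, 59 entries rose in both steps and 286 fell in both steps.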

How the data were processed

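Small RNA of 18 to 30 nt was cut from a gel and ligated to 3′ adapters with molecular identifiers, per the labels' protocols. Bowtie2 is named in the submitters' processing notes; its version and role, the genome build, the counter, the siRNA predictor and what became of the molecular identifiers were not given in the sources used here. Whole-number counts per small RNA entry were deposited, per the file headers. A second set of columns headed TPM sums to the order of the library totals and not to a fixed number and was treated as a score of the authors, used in an alternative. Guides and passengers are the deposited sequences of the predicted siRNAs; 7 lines of that list were empty.

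Counts as deposited were tested in edgeR 4.0.16 (R 4.3.3; TMM, filterByExpr by day, quasi-likelihood F test, 9 libraries in 1 fit), with Benjamini-Hochberg adjustment over 7294 entries. The script was tested on simulated counts. Replicate libraries differed by more than counting noise, with a chi-square per degree of freedom of 3.51 to 16.0 over the members.

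The members, lists and tests were chosen with earlier results of these data known. Named were the 10 members with the highest mean CPM; per comparison, among those past the threshold whose days did not overlap, the 5 largest rises and 5 largest falls by log2 change; the 3 with the closest day means and at least 20 CPM; 2 members at the lowest minimum count; 2 entries at 0 in 1 library with the highest mean; and members overlapping one of the 10 by at least 20 bases. Alternatives were other size factors, library totals or all reads, other filters, DESeq2 1.42.0, a replicate block, each library left out, identical guides summed, the column headed TPM and a minimum of 20 reads; a 16-base overlap, the 10 most abundant of each library and leaving out overlapping or uneven members were added after seeing the data. Counting noise limits entries near 10 reads.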

Additional observations from a re-analysis of the deposited data

How the results depend on the processing

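The numbers of members called were within 1.5 times of those above under every alternative run except library totals alone, without TMM factors. There 71 were higher at day 22 against day 7, 77 were higher and 630 lower at day 37 against day 22, 81 were higher at day 37 against day 7, and 40 rose and 534 fell in both steps. The median change of all entries moved by -0.44, -0.47 and -0.91 in the 3 comparisons under that scaling, by -0.34, 0.15 and -0.19 with RLE factors, by 0.07, 0.15 and 0.26 with the upper quartile and by 0.11, -0.28 and -0.12 with all reads as library size. With each library left out in turn, 609 to 646 members were lower and 140 to 158 higher at day 37 against day 7, 53 to 62 rose in both steps and 242 to 283 fell in both steps. DESeq2 gave 671 lower and 133 higher at day 37 against day 7.

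Of the 64 changes of single entries followed through the settings, all but 8 kept their direction and their side of the threshold in every setting run. The change of novel_sir5021 at day 37 against day 22 was not among those followed. On library totals alone novel_sir11343 changed by -0.29 and novel_sir5021 by -0.60 at day 37 against day 7, the second passing (adjusted p = 0.00573, edgeR), and with the upper quartile novel_sir5021 rose by 0.58 and passed. At day 37 against day 22, novel_sir11713, novel_sir8421 and novel_sir11714 changed by -0.11, -0.33 and -0.43 on library totals alone and by 0.08, -0.14 and -0.25 with all reads as library size, while novel_sir11714 passed with DESeq2 at 0.19 and with identical guides summed at 0.23, and novel_sir7367 no longer passed on library totals alone at 0.60. In the falling group novel_sir10734 no longer passed at day 37 against day 7 with the upper quartile at -0.42, and novel_sir10732 passed in 6 settings, day 37 replicate 3 left out among them, at -2.01 to -1.25. Whether replicate numbers pair the libraries is undetermined: the correlations of same-numbered deviations were weak, from -0.03 to 0.12, and 8 of 9 libraries correlated best with their own number. With the replicate block, 617 members were lower and 153 higher at day 37 against day 7.

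As a share of all reads the members held 0.928%, 0.928% and 1.17% at days 7, 22 and 37. A minimum of 20 reads gave 11.8% of small RNA reads at day 7, and the column headed TPM 13.9% at day 7 and 9.67% at day 22. The 10 most abundant held 21.7% at day 22 and 27.9% at day 37 with identical guides summed, 21.3% at day 22 with a minimum of 20 reads, and 14.1%, 22.1% and 28.8% when chosen in each library. With a minimum of 20 reads, 102 members held 50% of the reads at day 7, and first base shares were 77.0% for A, 15.4% for C and 5.30% for G at day 7 and 2.27%, 2.18% and 1.23% for T at days 7, 22 and 37. Without the 10 most abundant members, A held 76.6%, 77.3% and 75.3%, C 13.0%, 14.0% and 17.5%, G 5.98%, 5.53% and 5.11% and T 4.46%, 3.19% and 2.05%. The cause of these shifts was not tested beyond what each setting leaves out. With 16 bases of overlap 370 members overlapped another. Entries near 10 reads carry the largest counting error, and entries at 0 in any library are outside these counts.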
